A study of Rattus norvegicus with 24 samples.

Results

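The genes followed here were the 8 rows of the deposited expression table named Nkx2-1, Lhx6, Lhx8, Sox6, Satb1, Maf, Sst and Npy, out of 17420 genes in the table. They were chosen by name as genes of interneurons born in the medial ganglionic eminence (MGE). All 8 were above the table's floor in every pup.

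The table came from RNA sequencing of hippocampus and neocortex of Sprague-Dawley rat pups at embryonic day 18. The 24 pups fell into 4 groups of 6, set by what the pregnant dam received, and each group held 2 litters of 3 pups. In the Saline group the dam was injected with saline, and the control diet held 20.3% protein. In the MAM group the dam received 22 mg/kg of methylazoxymethanol acetate, an alkylating agent that kills dividing neural precursors, on gestational day 17. In the Poly I:C group the dam received 7.5 mg/kg of polyinosinic:polycytidylic acid, a double-stranded RNA that mimics a viral infection, on gestational day 17. Injected dams were sampled 18 h later. In the Low Protein group the dam ate a diet of 6.1% protein from gestational day 11 to 18. The diet of the MAM and Poly I:C dams, and whether Low Protein dams were injected, are not given in the sources used here. The dam was treated, and there were 2 dams per group, so the p-values below measure the spread between pups. Pups are named here by group, litter and pup, so that Saline 2-1 is pup 1 of the second saline litter.

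The MGE is a swelling of the floor of the embryonic forebrain, the subpallium, that makes most somatostatin and parvalbumin interneurons of the cortex and hippocampus. Sonic hedgehog keeps the homeodomain factor Nkx2-1 on in its progenitors, and Nkx2-1 turns on the LIM-homeodomain genes Lhx6 and Lhx8. Cells bound for the cortex then switch Nkx2-1 off, keep Lhx6 and migrate into the pallium. Cells that stay in the basal forebrain can keep Nkx2-1 and Lhx8, and many of these become cholinergic neurons. Sox6, Satb1 and Maf act after the last division, in migration, positioning and subtype maturation, and all are also used by cells of other origins. Sst and Npy encode the neuropeptides somatostatin and neuropeptide Y.

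The stretch around the annotated start of transcription is shown for the members whose values differed most between pups or groups, so that the regulatory letters of each can be read beside its levels. Each window was taken from RefSeq on the GRCr8 rat build and holds 250 bases before and 50 bases from the start, written 5′ to 3′ on the gene's own strand. The windows were Nkx2-1 at chr6:79734818-79735117 (minus strand), Lhx6 at chr3:39853374-39853673 (minus strand), Lhx8 at chr2:245929327-245929626 (minus strand, the first of its 2 listed starts) and Sst at chr11:90461296-90461595 (plus strand). Capitals mark exact matches, on either strand, to 3 motifs: TGACGTCA (the cAMP response element), TAATTA (a core bound by many homeodomain proteins) and CTCAAG (which holds the CAAG core of NK2-class homeodomain proteins such as Nkx2-1).
Nkx2-1: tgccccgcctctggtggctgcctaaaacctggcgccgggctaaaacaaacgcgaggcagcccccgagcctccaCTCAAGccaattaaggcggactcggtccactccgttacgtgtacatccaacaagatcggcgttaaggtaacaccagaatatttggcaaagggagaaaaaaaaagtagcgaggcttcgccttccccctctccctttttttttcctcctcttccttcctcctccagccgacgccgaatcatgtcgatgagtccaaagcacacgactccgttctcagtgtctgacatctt
Lhx6: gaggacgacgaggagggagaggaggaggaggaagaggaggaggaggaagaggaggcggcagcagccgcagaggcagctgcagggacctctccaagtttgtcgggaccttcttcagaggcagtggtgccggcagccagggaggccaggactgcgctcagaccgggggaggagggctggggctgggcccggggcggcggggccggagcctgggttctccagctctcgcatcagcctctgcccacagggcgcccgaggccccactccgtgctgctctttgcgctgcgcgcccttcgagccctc
Lhx8: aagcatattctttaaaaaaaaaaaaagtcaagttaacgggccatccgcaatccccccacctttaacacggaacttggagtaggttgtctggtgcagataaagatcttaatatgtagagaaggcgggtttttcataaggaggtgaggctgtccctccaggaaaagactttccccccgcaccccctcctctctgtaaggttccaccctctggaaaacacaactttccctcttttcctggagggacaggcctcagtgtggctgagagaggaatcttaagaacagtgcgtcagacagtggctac
Sst: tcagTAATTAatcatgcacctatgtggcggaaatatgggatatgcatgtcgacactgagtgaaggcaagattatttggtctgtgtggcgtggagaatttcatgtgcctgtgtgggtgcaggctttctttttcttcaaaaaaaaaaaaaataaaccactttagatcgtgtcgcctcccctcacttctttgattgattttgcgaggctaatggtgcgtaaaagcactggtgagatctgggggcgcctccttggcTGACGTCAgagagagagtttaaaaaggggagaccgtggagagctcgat

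The Sst window held the cAMP response element, from base 3 to base 10 counted from the annotated start as base 1, and TAATTA from base -246 to -241. The element TGACGTCA occurred in 1.83% of the 33469 rat promoter windows searched, and Sst was the 1 member of 8 with it. TAATTA occurred in 5.36% of all windows and in the windows of Sox6 and Sst. CTCAAG occurred in 15.8% of all windows and in those of Nkx2-1, from base -177 to -172, and Sox6. The Lhx6 and Lhx8 windows held none of these motifs. A match is a description of the letters and says nothing of binding in these pups.

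The values are TPM as deposited, a measure of transcripts normalised for depth and gene length, which here appear to be scaled to each gene's whole genomic span, introns included, so a level is compared between pups for 1 gene and not between genes. Estimated depth ran from 24.3 to 63.2 M reads per pup, with a median of 33.1 M in Saline and of 43.1 M, 41.3 M and 29.9 M in the Low Protein, MAM and Poly I:C groups. The genes of the cortical excitatory list were above the floor in every saline pup, and the 10 summed to between 136.5 and 276.5 TPM. Such a sum weighs its genes unequally, so it is compared between pups for 1 list and not between lists. RNA of the subpallium was present too, with the 16 striatal genes summing to between 12.7 and 23.4 TPM in saline pups. One library stood apart at the high end of the members and another at the low end. Saline 2-1 was the highest of 24 pups for Nkx2-1, Lhx8, Sst and Npy and the highest saline pup for Lhx6. The same pup was the highest of 24 for Dlx1, Dlx2, Dlx5, Gad1, Gad2, Drd1 and Six3, and its cortical excitatory sum of 137 TPM was the lowest of the saline group, where the other pups ran from 222 to 276 TPM. Differences of members and of named genes that it moved by over 1.5 times, or whose p it took past 0.05, are also given without it.

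Every member but Satb1 in Poly I:C had a lower mean log2 value than saline in every treated group, and no member passed the adjusted test in any comparison. Below, runs of 3 values follow the order Low Protein, MAM, Poly I:C. Of the 8 members, 8, 8 and 7 lay below saline, where 54.9%, 70.6% and 49.3% of the 13371 genes tested did. The median log2 difference of the members was -0.35, -0.18 and -0.17, beside -0.02, -0.07 and 0.00 for all genes tested. All 3 comparisons used the same 6 saline pups, so their directions are not independent of each other. Without Saline 2-1 the medians of the members were -0.23, -0.15 and -0.15, and 8, 8 and 7 lay below saline, beside 60.6%, 72% and 54.1% of all genes.

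The test was limma on log2 TPM across all 24 pups, with Benjamini-Hochberg adjustment over the 13371 genes. Genes with an adjusted p under 0.05 made up 0%, 0.015% (2 genes) and 0% of those tested, and 0 were members. Members whose unadjusted p was under 0.05 numbered 3 after the low-protein diet (Lhx6, Lhx8 and Npy), 2 after MAM (Lhx6 and Satb1) and 2 after Poly I:C (Sst and Npy), against backgrounds of 7.08%, 9.79% and 9.2% of all genes tested. All of these lay below saline, a direction and p held by 4.43%, 7.64% and 5.35% of the genes tested. In none of the 24 member comparisons did the 6 treated pups fall clear of the 6 saline pups, as they did for 0.673%, 0.875% and 0.434% of genes. Without Saline 2-1 each treated group had 1 member with an unadjusted p under 0.05, Lhx6, Satb1 and Sst in turn. Each lay below saline, so 12.5% of the members did with that p, beside 2.92%, 11.2% and 4.17% of all genes. The MAM count was thus near the background. Without Low Protein 1-1 the Low Protein group also had 1, where 736 of the 13371 genes had such a p. A bulk value cannot tell fewer interneurons from less RNA in each interneuron.

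**Figure D1:**
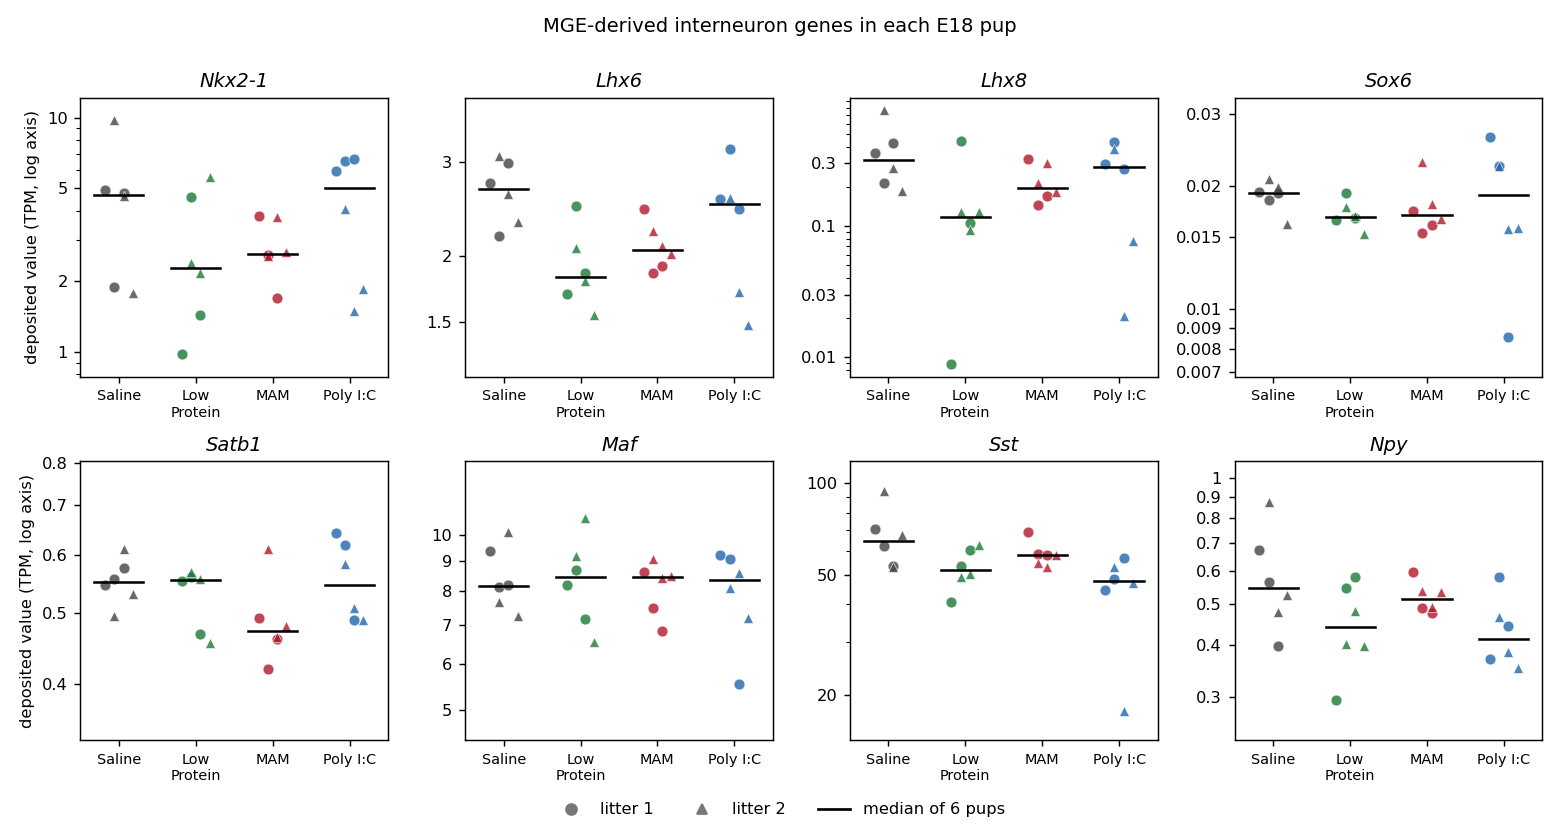
Deposited TPM of each member (1 panel a gene, log axis) in each of the 24 pups by maternal treatment, with circles for litter 1, triangles for litter 2 and a bar at the median of the 6 pups. The treated pups overlapped the saline pups in every panel, Saline 2-1 was the highest saline pup for Nkx2-1, Lhx6, Lhx8, Sst and Npy, and Lhx8 reached down to 0.00885 TPM in Low Protein 1-1.

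Nkx2-1, the factor that specifies the MGE, varied more between pups of 1 group than between groups. The saline pups read 4.93, 1.89 and 4.76 TPM in litter 1 and 9.74, 4.63 and 1.79 TPM in litter 2. The Low Protein pups read 0.978, 4.58 and 1.44 TPM in litter 1 and 2.398, 2.17 and 5.58 TPM in litter 2. The saline values spanned 5.45-fold and the Low Protein values 5.70-fold, and the groups overlapped over most of that range. The difference of Low Protein from saline was -0.71 on the log2 scale, with a standard error of 0.473, and p was 0.232 in the exact permutation test (two-sided, all ways of dividing the 12 pups). The MAM pups were closer together, at 3.80, 2.58 and 1.70 TPM in litter 1 and 2.57, 3.76 and 2.66 TPM in litter 2. Their log2 difference was -0.51, with a 95% interval from -1.49 to 0.47 (adjusted p = 0.685). Without Saline 2-1, whose 9.74 TPM was the highest of all pups, the Nkx2-1 difference was -0.45 in Low Protein and -0.25 in MAM.

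In Poly I:C the litters stood apart for Nkx2-1. Litter 1 read 5.90, 6.51 and 6.69 TPM and litter 2 read 4.08, 1.498 and 1.85 TPM, so no pup of the second litter reached the lowest of the first. The litters lay on opposite sides of the saline mean, at 0.70 and -0.80 on the log2 scale, and the group's difference was -0.05 (adjusted p = 0.985), which turned to 0.21 without Saline 2-1. Nkx2-1 is also made in the hypothalamus and preoptic area. The 10 measured genes of that list summed to between 0.602 and 6.32 TPM in saline pups, and the treated groups ran from 0.396 to 8.40, from 0.595 to 6.21 and from 0.533 to 7.40 TPM, with Hcrt at the floor in at least 12 pups. The part of such tissue in the Nkx2-1 values was not tested.

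Lhx6, which drives the migration and fate of MGE-derived interneurons and stays on in them, was the member with the smallest p in Low Protein. The saline pups read 2.74, 2.18, 2.99, 3.08, 2.61 and 2.31 TPM. The Low Protein pups read 1.69, 2.48, 1.86, 2.07, 1.79 and 1.55 TPM. All 6 Low Protein pups lay below the saline median of 2.67 TPM, and 5 lay below the lowest saline pup, with Low Protein 1-2 the exception. Low Protein differed from saline by -0.48 on the log2 scale, a ratio of 0.717, with a 95% interval from -0.79 to -0.17. The exact permutation test gave p = 0.00866, and the adjusted p of limma over all genes was 0.663. The difference was of like size in both litters, at -0.41 and -0.55, and was -0.44 without Saline 2-1.

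The MAM pups read 2.45, 1.86, 1.92, 2.22, 2.09 and 2.02 TPM for Lhx6. All 6 lay below the saline median and 4 below the lowest saline pup. On the log2 scale MAM differed by -0.34, with a 95% interval from -0.65 to -0.02 (exact permutation p = 0.013, adjusted p = 0.509). The saline pups are the same as in the comparison above. Leaving out Saline 2-1 took the unadjusted limma p from 0.0366 to 0.0811, and scaling by the median of ratios took it to 0.0631 at a difference of -0.27. The p also rose above 0.05 without any 1 of MAM 1-2, 1-3, 2-2 or 2-3 or Saline 1-1 or 1-3, and without any 1 litter of either group. In Poly I:C the first litter read 2.55, 3.17 and 2.44 TPM and the second 2.57, 1.71 and 1.48 TPM. The litters lay at 0.04 and -0.49 from the saline mean, and the group's difference of -0.23 had an exact permutation p of 0.268. Across the 4 groups the F test of limma for Lhx6 gave an adjusted p of 0.362.

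Lhx8, the partner of Lhx6 that is retained in basal forebrain cholinergic neurons, had the largest difference from saline of the members in each treated group, and the widest spread of log2 values in each of them. The saline pups read 0.360, 0.212, 0.426, 0.762, 0.278 and 0.186 TPM. The Low Protein pups read 0.00885, 0.443, 0.106, 0.129, 0.0934 and 0.128 TPM, so that 5 of 6 lay below every saline pup and Low Protein 1-2 lay above 5 of the 6. The lowest pup, Low Protein 1-1, rested on an estimated 16 reads. The highest in TPM, Saline 2-1, had 645.5, and the most were the 728 of Saline 1-3. Low Protein lay at -1.83 from saline on the log2 scale, with a 95% interval from -3.38 to -0.28 (exact permutation p = 0.026, adjusted p = 0.686). Without Low Protein 1-1 it was -1.15, with an unadjusted limma p of 0.0819, and without Saline 2-1 it was -1.59 at 0.0555.

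The MAM pups read 0.323, 0.146, 0.168, 0.213, 0.305 and 0.180 TPM for Lhx8, a log2 difference of -0.63 (exact permutation p = 0.0996) that was -0.39 without Saline 2-1. The Poly I:C pups split as they did for Nkx2-1 and Lhx6. Litter 1 read 0.295, 0.440 and 0.274 TPM, and litter 2 read 0.389, 0.0206 and 0.0766 TPM, with the low values in the same pups 2-2 and 2-3. The litters lay at 0.00 and -1.95 from the saline mean on the log2 scale, and the group's difference of -0.98 had an interval from -2.53 to 0.57 (adjusted p = 0.726).

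Genes that define cholinergic neurons of the basal forebrain were read beside Lhx8. The 5 genes of that list summed to between 1.18 and 1.82 TPM in saline pups, and the treated groups ran from 0.900 to 1.71, from 1.16 to 1.64 and from 0.945 to 1.67 TPM. With an unadjusted p under 0.05, 3 of the 5 lay below saline in the Low Protein pups and 0 in either other group, and 0 passed the adjusted test in any. Of all genes tested, 4.43%, 7.64% and 5.35% were lower with that p. Among the 3 were Slc18a3, the vesicular acetylcholine transporter, at a log2 difference of -1.23, and Chat, the acetylcholine-making enzyme, at -1.77. Chat was near the floor, with a saline mean of 0.00275 TPM, and was at the floor in 2 Low Protein pups. Ngfr, a neurotrophin receptor, differed by 0.05. Without Saline 2-1, 2 of the 5 were still lower with that p in Low Protein, beside 2.92% of all genes. Slc18a3 and Chat were then at -1.03 and -1.92, and Ngfr was at -0.03. The part of basal forebrain tissue in the Lhx8 values was not tested.

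**Figure D2:**
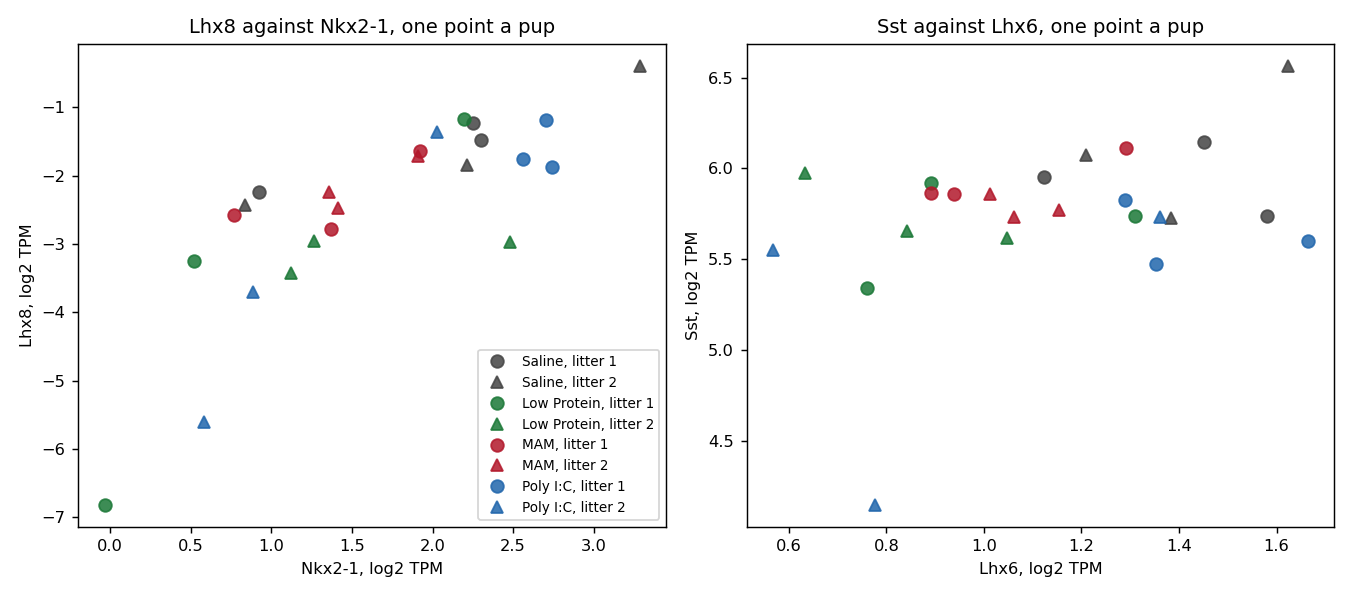
Log2 TPM of Lhx8 against Nkx2-1 (left) and of Sst against Lhx6 (right), 1 point a pup, coloured by maternal treatment, with circles for litter 1 and triangles for litter 2. On the left, Saline 2-1 is at the upper right, Low Protein 1-1 at the lower left and Poly I:C 2-2 next above it; on the right, Poly I:C 2-2 is the lowest point.

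Sox6, Satb1 and Maf act later, as interneurons mature, and lay within 0.19 of saline on the log2 scale in every group. Sox6, which positions MGE-derived cells and keeps them from other fates, ran from 0.0162 to 0.0208 TPM in saline pups with a median of 0.0193, and from 0.0153 to 0.0192 in Low Protein with a median of 0.0168. All 6 Low Protein pups lay below the saline median. Its log2 difference was -0.15, with a 95% interval from -0.53 to 0.22, and the exact permutation p was 0.0563. In MAM the range was 0.0153 to 0.0229 TPM and the difference -0.11 (exact permutation p = 0.29). Poly I:C was the widest group, from 0.00854 TPM in pup 1-3 to 0.0263 TPM in pup 1-1, with 3 pups below every saline pup and 3 above every saline pup. Its difference of -0.12 was set by 1 pup, and was 0.09 without Poly I:C 1-3.

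Satb1, a chromatin organiser that Lhx6 turns on in maturing somatostatin interneurons and that cortical projection neurons also use, had the smallest coefficient of variation among saline pups, at 7.08%. The saline pups read 0.546, 0.556, 0.575, 0.496, 0.610 and 0.530 TPM. The MAM pups read 0.492, 0.420, 0.461, 0.610, 0.464 and 0.480 TPM. In MAM 5 of 6 pups lay below the lowest saline pup, and MAM 2-1 lay level with the highest. The log2 difference was -0.19, with an exact permutation p of 0.0519 and an adjusted p of 0.510, and it was -0.12 after scaling by the median of ratios. The unadjusted limma p of 0.0495 stayed under 0.05 in 14 of 42 alternatives, and leaving out most single pups of either group took it above. The differences of Low Protein and of Poly I:C were -0.07 and 0.00, with 95% intervals from -0.26 to 0.11 and from -0.18 to 0.19.

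Maf, which acts in the differentiation of MGE-derived interneurons and is also made by macrophages and lens, was the member nearest to saline in each treated group but Poly I:C. It ran from 7.24 to 10.1 TPM in saline pups, and from 6.55 to 10.7, from 6.83 to 9.10 and from 5.55 to 9.21 TPM in the treated groups. The log2 differences were -0.02, -0.05 and -0.10. Their 95% intervals ran from -0.28 to 0.25, from -0.31 to 0.22 and from -0.36 to 0.16. Both of the first signs turned positive after scaling by the median of ratios, at 0.01 and 0.02. Without Saline 2-1 these values were -0.04 and -0.07, and Satb1 in Poly I:C was at -0.03.

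Sst, the neuropeptide of a major MGE-derived class, was the member with the smallest p in Poly I:C. The saline pups read 70.8, 61.9, 53.4, 94.6, 53.0 and 67.4 TPM. The Poly I:C pups read 44.5, 48.4, 56.6, 53.1, 17.7 and 46.9 TPM. All 6 Poly I:C pups lay below the saline median of 64.6 TPM and 4 lay below the lowest saline pup. The log2 difference was -0.65, a ratio of 0.639, with a 95% interval from -1.08 to -0.21. The exact permutation p was 0.0108 and the adjusted p of limma was 0.371. Pup 2-2 was far below its group, and without it the difference was -0.40 with an unadjusted limma p of 0.00608. Without Saline 2-1 it was -0.54. Both litters lay below the saline mean, at -0.40 and -0.89.

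The Low Protein pups read 40.5, 53.3, 60.4, 49.1, 50.4 and 62.8 TPM for Sst, all below the saline median. The log2 difference was -0.33 (exact permutation p = 0.0606, adjusted p = 0.772). The MAM pups read 69.3, 58.4, 58.0, 54.6, 53.1 and 58.0 TPM, none below the lowest saline pup, and the difference was -0.17 (exact permutation p = 0.271), or -0.06 without Saline 2-1. MAM and Poly I:C were also set against each other, in a family of 24 tests of members between treatments. None of the 24 passed the adjusted test. With an unadjusted limma p under 0.05 there were 2, Sst at 0.0315 and Satb1 at 0.0476, both between MAM and Poly I:C. Sst was 0.48 higher in MAM on the log2 scale (exact permutation p = 0.00866, adjusted p = 0.223). Without Poly I:C 2-2 this was 0.23 with an unadjusted limma p of 0.0915, and without MAM 1-1 it was 0.43 at 0.0655. Satb1 was at -0.19 in MAM against Poly I:C (exact permutation p = 0.0779, adjusted p = 0.274), and its unadjusted limma p ranged from 0.00579 to 0.127 as single pups of the pair of groups were left out. Npy was at 0.29 (unadjusted limma p = 0.111, exact permutation p = 0.0455, adjusted p = 0.404).

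Npy, the peptide of a subset of Sst cells and of neurogliaform cells, had its lowest means in Poly I:C and Low Protein, as Sst did. The saline pups read 0.674, 0.565, 0.398, 0.876, 0.479 and 0.525 TPM. The Poly I:C pups read 0.371, 0.579, 0.443, 0.466, 0.385 and 0.351 TPM, and 3 of them lay below the lowest saline pup. The log2 difference was -0.41, with a 95% interval from -0.77 to -0.06 (exact permutation p = 0.0563, adjusted p = 0.466). The Low Protein pups read 0.296, 0.547, 0.582, 0.402, 0.482 and 0.398 TPM, and the difference was -0.37 (exact permutation p = 0.134, adjusted p = 0.701). The MAM pups sat between 0.477 and 0.597 TPM, and the difference was -0.13 (adjusted p = 0.792), or 0.00 without Saline 2-1. Npy rested on between 93 and 340 estimated reads a pup. Without Saline 2-1 the unadjusted limma p rose from 0.0251 to 0.0863 in Poly I:C, at a difference of -0.29, and from 0.0441 to 0.146 in Low Protein, at -0.24. The Poly I:C value also rose above 0.05 without Saline 1-1 or Poly I:C 1-1 or 2-3, and the Low Protein value without Saline 1-1 or 1-2 or Low Protein 1-1, 2-1 or 2-3.

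**Figure D3:**
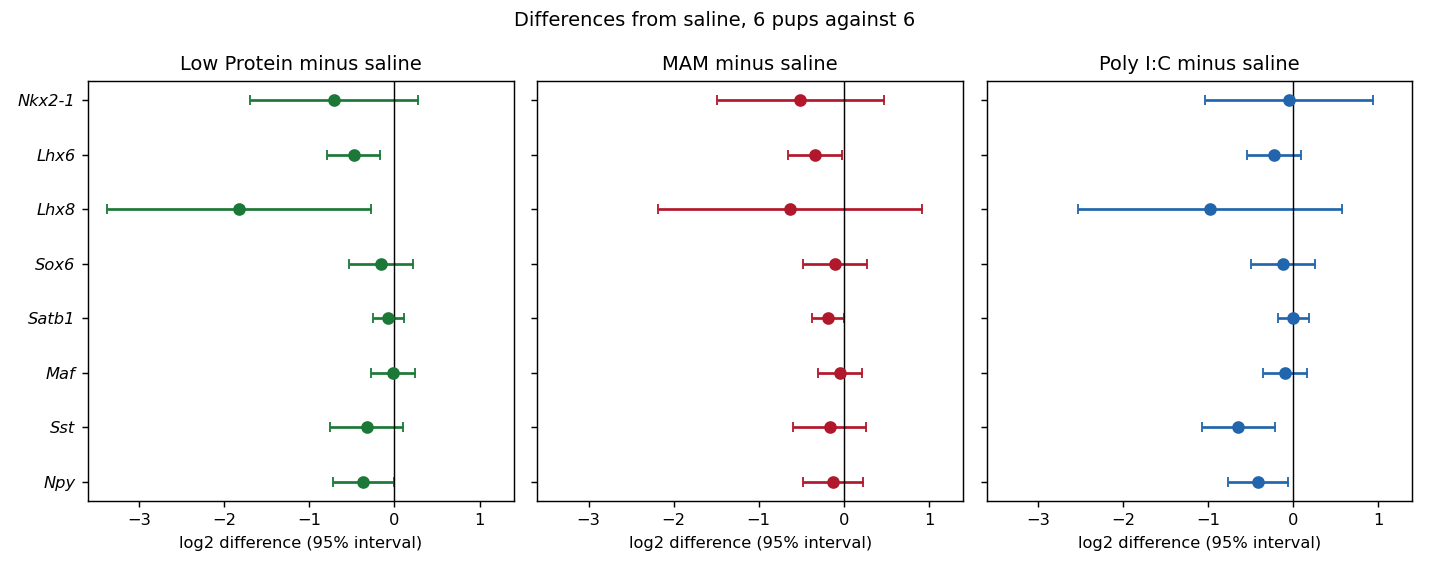
Log2 difference of each member from saline in Low Protein (left), MAM (middle) and Poly I:C (right), with limma 95% intervals from 6 pups against 6. The intervals that exclude 0 are those of Lhx6, Lhx8 and Npy in Low Protein, Lhx6 and Satb1 in MAM and Sst and Npy in Poly I:C, and the widest are those of Lhx8 and Nkx2-1.

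Over the 24 pups, with each group's mean removed, the 28 pairs of members had Pearson r from -0.371 to 0.814. The pups share dams in threes and saline controls are common to all, so these are descriptions. Nkx2-1 and Lhx8 had the highest, with a Spearman rho of 0.857. That r was 0.783 without the 2 pups farthest from the Nkx2-1 median and 0.775 with litter means removed in place of group means. Lhx6 went with Lhx8 at r = 0.743 (rho 0.862) and with Nkx2-1 at r = 0.679 (rho 0.692). Lhx8 went with Npy at r = 0.602 and with Sst at r = 0.684, but the last was 0.375 without the 2 pups farthest in Lhx8. Among the maturation genes, Satb1 and Maf had r = 0.729 (rho 0.795), Sox6 and Maf r = 0.691 (rho 0.652) and Sox6 and Satb1 r = 0.679 (rho 0.782). Lhx6 bridged both kinds, at r = 0.513 with Satb1 (rho 0.542), 0.395 with Sox6 (rho 0.723) and 0.377 with Sst (rho 0.327). Without the 2 pups farthest in Lhx6 these r were 0.403, 0.332 and 0.5. Lhx8 and Sox6 had r = 0.275 and rho 0.596, while Nkx2-1 and Maf had r = 0.024 and Maf and Sst r = -0.371.

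**Figure D4:**
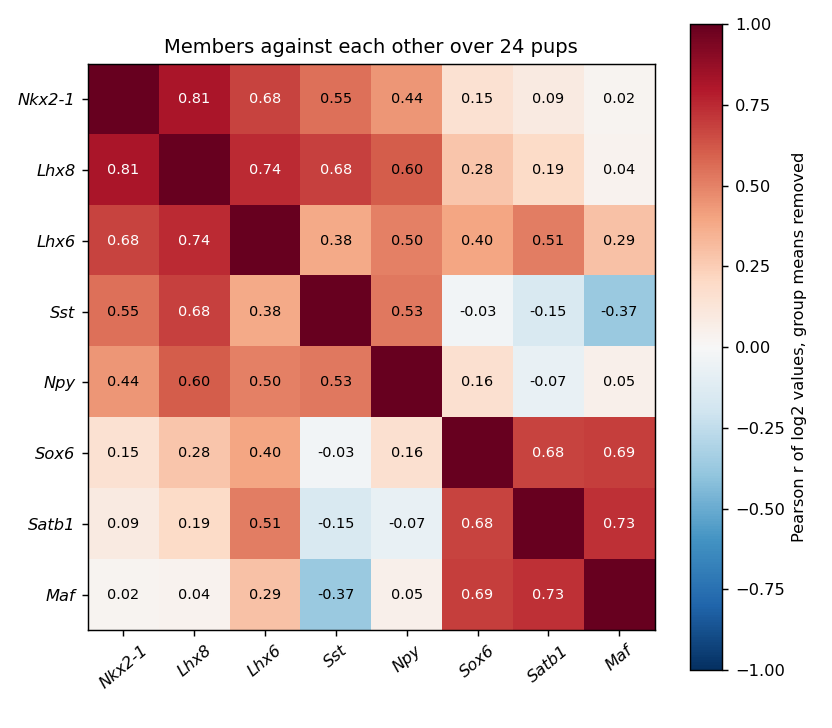
Pearson r between members over 24 pups, computed on log2 TPM after removing each group's mean, with red for positive and blue for negative values. Nkx2-1, Lhx8, Lhx6, Sst and Npy have positive values with each other (0.377 to 0.814), as do Sox6, Satb1 and Maf (0.679 to 0.729). Lhx6 also has positive values with the latter 3 (0.291 to 0.513), as do Nkx2-1 and Lhx8 at lower values (0.024 to 0.275).

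The genes most like each member, by the same r over 24 pups among the 13371 tested, fell into different kinds. For Lhx8 they included the homeobox gene Gbx1 (0.946), the transporter Slc10a4 (0.908), Slc18a3 (0.907), which is on the cholinergic list, and Ajap1 (0.898). For Nkx2-1 they were Asic4 (0.949), Ecel1 (0.934), Dusp26 (0.929), Olig2 (0.926), a factor of MGE progenitors and oligodendrocyte precursors, and Fbxo44 (0.920). For Npy the nearest was Dlx5 (0.880), a homeobox gene of the subpallium, followed by B4galt3 (0.861), the striatal dopamine receptor Drd2 (0.840), Gng7 (0.835) and Rxrg (0.816). For Sst they were Fxyd7 (0.866), Tmem59l (0.830), Gng3 (0.829), Ap1m2 (0.820) and Prmt8 (0.820), and for Lhx6 Ppfia4 (0.873), Stk11 (0.862), Fam57b (0.860), Cend1 (0.859) and Plekha5 (0.853). Sox6 lay nearest to the axon guidance receptor Dcc (0.954), Satb1 to the histone demethylase Kdm2a (0.915) and Maf to the clock gene Per1 (0.922), and the 5 nearest genes of these 3, of Lhx6 and of Sst were on none of the lists.

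Most of the rest of the MGE network had means below saline. Of its 29 tested genes, 23, 23 and 22 did (79.3%, 79.3% and 75.9%, beside 54.9%, 70.6% and 49.3% of all genes), with median log2 differences of -0.28, -0.18 and -0.15. With an unadjusted p under 0.05, 6, 2 and 3 were lower (20.7%, 6.9% and 10.3%, beside 4.43%, 7.64% and 5.35% of all genes), so the MAM count was near the background. Of the list 0 were higher with that p and 0 passed the adjusted test. Without Saline 2-1 the counts were 3, 0 and 2 (10.3%, 0% and 6.9%, beside 2.92%, 11.2% and 4.17% of all genes). The medians were then -0.19, -0.15 and -0.08. In MAM, 18 of the 29 genes (62.1%) lay below saline under median of ratios scaling, beside 52.2% of all genes. Under upper quartile scaling 20 (69%) did, beside 56.8% of all genes. With an unadjusted p under 0.05, 1 of the 29 (3.45%) was lower under each scaling, near the 2.85% and 3.69% of all genes. Etv1, an ETS factor of MGE cells, was at -0.36 in Low Protein, and Nrp2, a guidance receptor, at -0.38 in Poly I:C. Elfn1, a synaptic protein of Sst cells, was at -0.48 after the low-protein diet as well as after Poly I:C. Dlx1, which acts upstream of interneuron migration, was at -0.29 in Low Protein and -0.26 in MAM, and Dlx2 was at -0.35, -0.20 and -0.17. Dlx5 was at -0.38, -0.23 and -0.14. Without Saline 2-1 Dlx1 was at -0.19 in Low Protein and -0.16 in MAM, Dlx2 at -0.18, -0.03 and 0.00 and Dlx5 at -0.23, -0.08 and 0.01, all with an unadjusted p above 0.05. Dlx6 and Lmo3 of the list were not analysed here.

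Genes that make and transport GABA were also read. All 4 genes of that list lay below saline in each treated group, beside 54.9%, 70.6% and 49.3% of all genes. With an unadjusted p under 0.05, 3, 1 and 1 were lower, beside 4.43%, 7.64% and 5.35% of all genes, and 0 passed the adjusted test. Gad1, a GABA-making enzyme, was at -0.47, -0.43 and -0.39, with exact permutation p of 0.0303, 0.0043 and 0.208. Gad2, another form of the enzyme, was at -0.39, -0.24 and -0.22, and the vesicular transporter Slc32a1 at -0.41, -0.26 and -0.24. The list summed to between 17.7 and 33.4 TPM in saline pups, with Saline 2-1 at the top, and in the treated groups to between 14.8 and 20.3, 16.9 and 20.7, and 12.4 and 22.1 TPM. Without that pup all 4 still had means below saline but 0 had an unadjusted p under 0.05 in any group, and the list's medians went from -0.40, -0.25 and -0.27 to -0.25, -0.14 and -0.17. Gad1 was then at -0.35, -0.31 and -0.27, Gad2 at -0.26, -0.11 and -0.09 and Slc32a1 at -0.25, -0.09 and -0.08.

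Lists of neighbouring origins were set beside these. Interneuron genes of the caudal ganglionic eminence (CGE) had medians of -0.27, -0.18 and -0.18 over 13 genes. Of these, 1, 0 and 2 lay lower with an unadjusted p under 0.05 (7.69%, 0% and 15.4%, beside 4.43%, 7.64% and 5.35% of all genes). The serotonin receptor gene Htr3a was at -0.32 after the low-protein diet and at -0.37 after Poly I:C, and Cck at -0.27 in Poly I:C and 0.21 in MAM. Striatal projection neuron genes had medians of -0.22, -0.33 and -0.11 over 16 genes, with Rarb at -0.62 in MAM. Oligodendrocyte precursor genes, some of them MGE-derived at this age, had medians of -0.28, -0.31 and -0.21 over 5 genes, with Sox10 at -0.44, -0.41 and -0.54 and Olig1 at -0.55 in Low Protein. The medians of the cortical excitatory list went the other way, at 0.18, 0.11 and 0.18, though 3, 2 and 2 of its 10 genes lay below saline. Emx2 was at 0.26 in Low Protein and Pax6 at 0.28 in Poly I:C. The list's sums in the treated groups ran from 199 to 298, from 224 to 267 and from 221 to 305 TPM. Without Saline 2-1 the CGE medians were -0.21, -0.05 and -0.06, the striatal medians -0.06, -0.19 and -0.02, the oligodendrocyte precursor medians -0.20, -0.20 and -0.10 and the cortical excitatory medians 0.07, -0.02 and 0.02, so the last turned in MAM. Cck in MAM was then at 0.16, Rarb at -0.39, Sox10 at -0.27, -0.24 and -0.37, Emx2 at 0.16 and Pax6 at 0.21, and of these only Sox10 in Poly I:C kept an unadjusted p under 0.05. None of these lists had a gene past the adjusted test, and the part of the share of subpallial tissue in the members' values was not tested.

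Lists of other cells and regions were read for comparison. The medians of the microglial list were 0.11, 0.14 and 0.09 over 10 genes, with C1qa and C1qb at 0.39 and 0.33 in MAM. The endothelial medians were 0.00, -0.06 and -0.05 over 6 genes, the meningeal medians 0.00, -0.04 and -0.02 over 5 genes, and the blood medians -0.02, 0.12 and 0.23 over 4 genes. The choroid plexus medians were 0.10, -0.27 and -0.05 over 4 genes and the thalamic medians -0.21, -0.34 and 0.41 over 4 genes, with Lhx9 at 0.48 in Poly I:C. Of the hypothalamic list 7 genes were tested, with medians of -0.95, -0.44 and 0.04. The medians in Low Protein and MAM were the values of Ghrh itself, a gene that read only 0.00533 to 0.0129 TPM in saline pups. Some of these medians, over few genes, were larger in size than those of the members: the hypothalamic ones in Low Protein and MAM, the thalamic and choroid plexus ones in MAM, and the thalamic and blood ones in Poly I:C. Without Saline 2-1 the hypothalamic medians were -0.90, -0.20 and 0.10 and the thalamic ones -0.11, -0.17 and 0.58. The unadjusted p of Ghrh then went from 0.0291 to 0.052, that of Lhx9 from 0.0449 to 0.0512 and that of C1qa from 0.0342 to 0.0592.

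**Figure D5:**
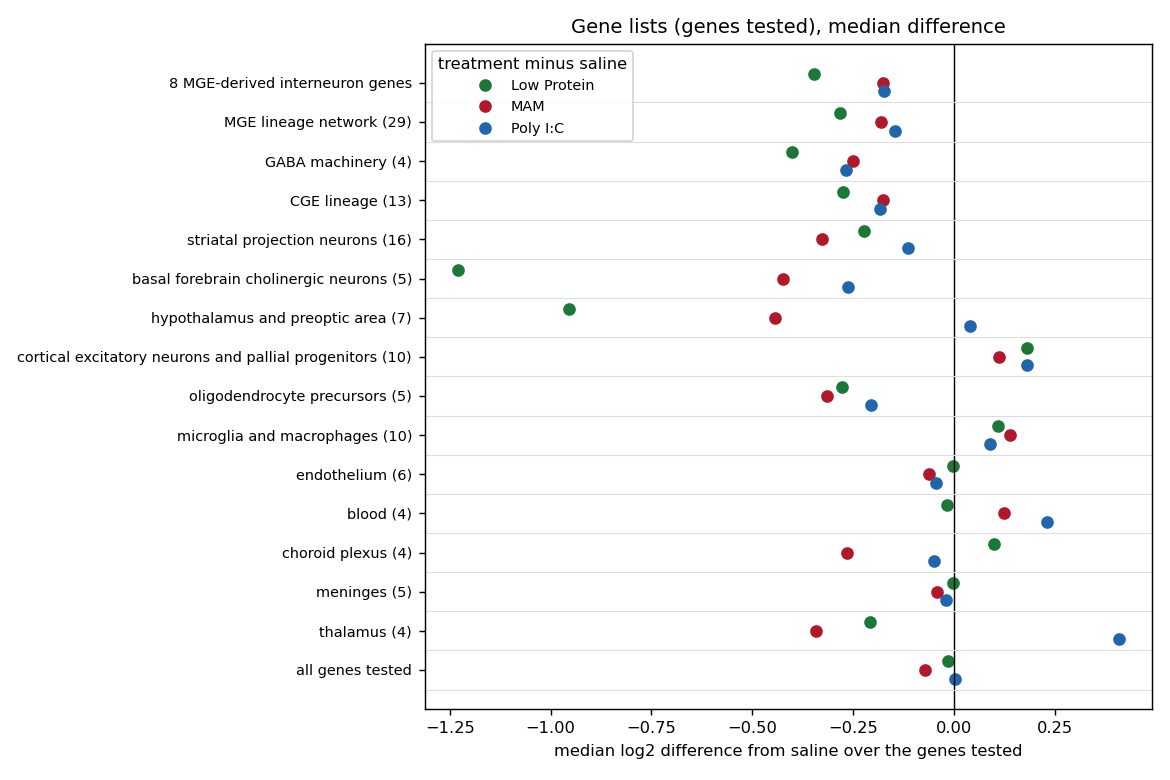
Median log2 difference from saline of the 8 members, of 14 gene lists (number of genes tested in brackets) and of all genes tested, with green for Low Protein, red for MAM and blue for Poly I:C. The members and the MGE, GABA, CGE, striatal, cholinergic and oligodendrocyte precursor lists lie left of 0 in all 3 treatments, as do the endothelial and meningeal lists by no more than -0.06, the cortical excitatory list lies right of 0 in all 3 (though not in MAM without Saline 2-1), the microglial list does too, and the cholinergic list in Low Protein is farthest left at -1.23.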

How the data were processed

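RNA of hippocampus and neocortex was measured in 24 rat pups, 6 per maternal treatment. Per the study's methods, the authors trimmed reads (TruSeq Stranded mRNA libraries), aligned them with STAR 2.4.1d to rn6, quantified genes with Partek against RefSeq transcripts and deposited TPM with an offset of 0.0001. Deposited TPM summed to 70350.1 in every pup, and 20.9% of values sat at the offset. Low values moved in steps of whole reads per genomic span (48.9% to 54.5% of low values within 0.05 of a whole number of reads, 10% if uniform), which gave the estimated depths. The spans came from RefSeq on GRCr8 and were found for 86.7% of genes. The GRCr8 span of Maf gave implausible read numbers, so no read estimate is given for it.

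Log2 TPM was computed from the deposited values and fitted with limma 3.58.1 (R 4.3.3) over all 24 pups, with group as the factor and Benjamini-Hochberg adjustment over the 13371 genes above the offset in at least 18 pups. The study's own limit of a group mean above 1 kept 5086 genes, and 4 of the members. Members were also compared with exact two-sided permutation tests (924 splits, smallest possible p 0.00216). The fitting code was tested on simulated data, and depth limits the low members. The members and the gene lists were chosen with earlier results of these data known. Named genes were the members, up to 4 genes per list by smallest p, the Dlx and Gad genes and the 5 genes most like each member. Some genes that this rule names are not reported here, and counts over a list include them. Pup numbers did not pair pups across groups, and litter was tried as a block. The alternatives were other scalings, pseudocounts, filters, litter models and leaving out each pup or litter. The authors' own comparisons were not used.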

Additional observations from a re-analysis of the deposited data

Results flagged for a closer look

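Within the 32 sets of 6 pups (8 members in 4 groups), 2 values lay far from the others of their set by Dixon's criterion, which chance alone meets in about 1 set in 20. Both were Sst values. In the MAM group, pup 1-1 was the highest at 69.3 TPM, where the other MAM pups ran from 53.1 to 58.4 TPM. In the Poly I:C group, pup 2-2 was the lowest at 17.7 TPM, where the others ran from 44.5 to 56.6 TPM. Poly I:C 2-2 was also the lowest Poly I:C pup for Lhx8, at 0.0206 TPM, and for Nkx2-1, at 1.498 TPM. Its cortical excitatory sum of 305 TPM was the highest of the 24 pups, as were its choroid plexus and thalamic sums of 247 and 5.26 TPM. Without it, the Sst difference of Poly I:C from saline was -0.40 on the log2 scale in place of -0.65.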

How the results depend on the processing

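Each result was recomputed under 43 alternatives, except that Lhx8, Sox6, Satb1 and Npy were absent under the study's limit of a group mean above 1, and no member reached an adjusted p under 0.05 in any of them. The lowest adjusted p was 0.0728, for Sst in Poly I:C with litter 1 of that group left out. Lhx6 in Low Protein kept an unadjusted p under 0.05 in all 43 (0.000447 to 0.0467), and so did Sst in Poly I:C (0.00233 to 0.0411). The median log2 difference of the members stayed negative throughout, and in Poly I:C, where it was -0.17, it was -0.50 with litter 2 of that group alone and -0.061 with litter 1 alone.

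The count of members with an unadjusted p under 0.05 against saline was 3 in Low Protein, and it was 1 under the study's limit and without Saline litter 2. Of all genes, 947 of 13371 had that p, beside 419 of 5086 under the limit and 562 of 13371 without Saline litter 2. In MAM the members' count was 2, beside 1309 of the 13371 genes. It was 1 under the study's limit, log2(value + 1), the 12 pups compared alone, litter as a random block, or without Low Protein litter 1, Low Protein litter 2, MAM litter 2 or Poly I:C litter 2. In turn, all genes with that p numbered 572 of 5086, and 1286, 1753, 1258, 1269, 1371, 658 and 1508 of 13371. The members' count was 0 under median of ratios scaling, upper quartile scaling, litter means, or without MAM litter 1, Saline litter 1 or Saline litter 2. There, all genes with that p numbered 1040, 1059, 691, 759, 469 and 1364 of 13371 in turn. In Poly I:C the members' count was 2, beside 1230 of the 13371 genes. It was 1 under the study's limit and without Poly I:C litter 2 or Saline litter 2, beside 506 of 5086, 633 of 13371 and 688 of 13371. Without Poly I:C litter 1 it was 4, beside 2388 of the 13371 genes. Leaving out each pup in turn gave 1 to 4 members in Low Protein (1 without Low Protein 1-1 or Saline 2-1), 0 to 2 in MAM (0 without MAM 1-2, 1-3, 2-2 or 2-3, or Saline 1-1 or 1-3) and 1 to 3 in Poly I:C. Over the same fits all genes with that p ran from 645 to 1076, from 738 to 1803 and from 869 to 1618 of 13371.

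Signs turned where a difference was near 0 or the litters disagreed. Maf in Low Protein was 0.0096 under median of ratios scaling, 0.040 without Low Protein litter 1 and 0.011 without Saline litter 1, and -0.088 to 0.053 over single pups left out. Maf in MAM was 0.018 under median of ratios, 0.0030 under upper quartile scaling and 0.046 without MAM litter 1, and -0.0892 to 0.0065 over single pups. Maf in Poly I:C was -0.15 to 0.0012 over single pups. Sox6 in MAM was 0.0060 without MAM litter 1, and in Poly I:C -0.24 to 0.086 over single pups. Nkx2-1 was 0.70 in litter 1 of Poly I:C alone and 0.093 in all 6 against Saline litter 1, and -0.28 to 0.22 over single pups. Lhx6 was 0.040 in that litter alone. Satb1 in Poly I:C was -0.017 under upper quartile scaling, -0.069 without Poly I:C litter 1 and -0.0188 without Saline litter 2, and -0.042 to 0.037 over single pups. Apart from scaling and the litters or pups left out by construction, the cause was not tested.

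The share of lower genes among those with an unadjusted p under 0.05 moved with the scaling, from 78.1% in MAM as deposited to 36.6% under median of ratios and 46.6% under upper quartile, and from 62.5% to 48.8% and 66.4% in Low Protein, and from 58.1% to 55.1% and 69.5% in Poly I:C. Counts of all genes with an adjusted p under 0.05 ran from 0 to 13 for Low Protein, 0 to 3 for MAM and 0 to 205 for Poly I:C, the last with litter 2 alone, where 2388 genes had an unadjusted p under 0.05. With the pup number as a replicate block, 2 members had an unadjusted p under 0.05 in each comparison, beside 1184, 1616 and 1431 of the 13371 genes. The Npy difference in Low Protein then stayed at -0.37 with an unadjusted p of 0.0543. The numbers name pups and do not pair them: deviations of same-numbered pups correlated at -0.105 to 0.125, and 0, 1 and 2 of 6 pups were closest to their own number. Chosen after seeing the data, the gene lists were also recomputed without Saline 2-1 and under both scalings. The MGE, GABA, CGE, striatal, cholinergic and oligodendrocyte precursor medians kept their sign in each. Low reads limit Lhx8 and Npy most.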
